A study of Homo sapiens with 4 samples.

Results

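The cells described here are human pluripotent stem cells (hPSC) in which transcripts of ID1 and ID3 were abundant. They were chosen from 1 single-cell transcriptome library by a rule on these 2 genes. A cell had to hold at least 3000 unique molecular identifiers (UMIs, tags that count captured transcripts), at most 20% of its UMIs from mitochondrially encoded genes, and at least 5 UMIs summed over ID1 and ID3. Of 15333 barcodes, 13862 passed the first 2 conditions, and 1740 of those met the third, which is 12.6% of the kept cells (95% exact Clopper-Pearson interval 12.0% to 13.1%). Both transcriptome libraries of the study together hold 31693 barcodes. The comparison cells were the 3127 kept hPSC cells with 0 UMIs of both genes, compared within the same deciles of total UMIs, which are 10 groups of like depth.

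ID1, ID2, ID3 and ID4 encode inhibitors of DNA binding, small helix-loop-helix proteins that lack a basic region. They pair with E proteins such as TCF3 and TCF12 and keep them off DNA, which holds back many differentiation programs. Bone morphogenetic proteins (BMPs) bind paired type I and type II receptors, which phosphorylate SMAD1, SMAD5 and SMAD9, and these enter the nucleus with SMAD4. ID1, ID2, ID3, SMAD6, SMAD7 and BAMBI are widely used as early readouts of that signal, and in pluripotent cells a strong BMP signal leads towards amnion-like, trophoblast-like or mesoderm fates.

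The study was a pooled CRISPR screen. The labels name H9, an established human embryonic stem cell line, as the source of all cells. Cells received a lentiviral guide library, whose constructs also hold EGFP under the EF1α promoter and a barcode that names the guide, and a second lentivirus with Cas9 and mCherry. They were sorted on fluorescence and recovered for 1 week, and one culture was then taken towards ectoderm. Members and comparison cells come from the same undifferentiated culture, which received 1 guide library, and the labels give no treatment that separates them. The protocol text for the hPSC culture also mentions the induction, and its group was taken from its title. Of 1 hPSC transcriptome library checked against the named line, 1 did not match it. The hPSC and ectoderm libraries share 78 cell barcodes. There is 1 library, cells are not replicates, and no test was made. All intervals are 95% and cover counting error only.

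The members were deeper cells. Their median was 7203 UMIs, against 4282 in the cells with 0 UMIs. Members made up 2.52% of the shallowest decile (35 of 1387 cells) and 42.2% of the deepest (586 of 1387 cells). The deepest decile holds 50.3% of the members' UMIs but only 59 comparison cells, whose median depth was 9566 UMIs against 11416 in its members. Every ratio below includes that decile, and for the genes described in most detail the log2 ratio without it is given as well. After each cell was thinned to 3000 UMIs, the median number of detected genes was 1491 in members and 1463 in the cells with 0 UMIs. The median mitochondrial share was 3.98% and 4.22%.

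The rule fixed the levels of ID1 and ID3, which are given as a description. Members held 240 CPM of ID1 (UMIs of the gene per 1000000 UMIs of the group) and 556 CPM of ID3. All kept cells together held 131 and 244 CPM. The highest sum in a cell was 18 UMIs, and 117 members had 10 or more. Just inside the threshold were 701 cells with exactly 5 UMIs and a median depth of 6650 UMIs. Just outside it were 1131 cells with exactly 4 UMIs and a median depth of 6086.

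ID1 and ID3 did not go together from cell to cell. Members with UMIs of both genes numbered 1330, while 361 members had no ID1 and 49 had no ID3. More ID3 than ID1 was found in 1331 members, more ID1 than ID3 in 337, and equal numbers in 72. Over all 13862 kept cells thinned to 3000 UMIs, Pearson's r between ID1 and ID3 was -0.03 and Spearman's rho was -0.02, a description over cells of 1 library that share its depth and base composition. The mean ID3 count in thinned cells was 0.733, 0.717 and 0.633 at 0, 1 and 2 ID1 UMIs, and 0.551 at 3 or more. Each gene alone varied more than genes of like mean. The variance over mean in thinned cells was 1.29 for ID1, against a median of 1.02 over 934 genes of like mean, of which 11 reached that value. For ID3 it was 1.46, against a median of 1.03 over 531 genes, of which 7 reached it.

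**Figure D1:**
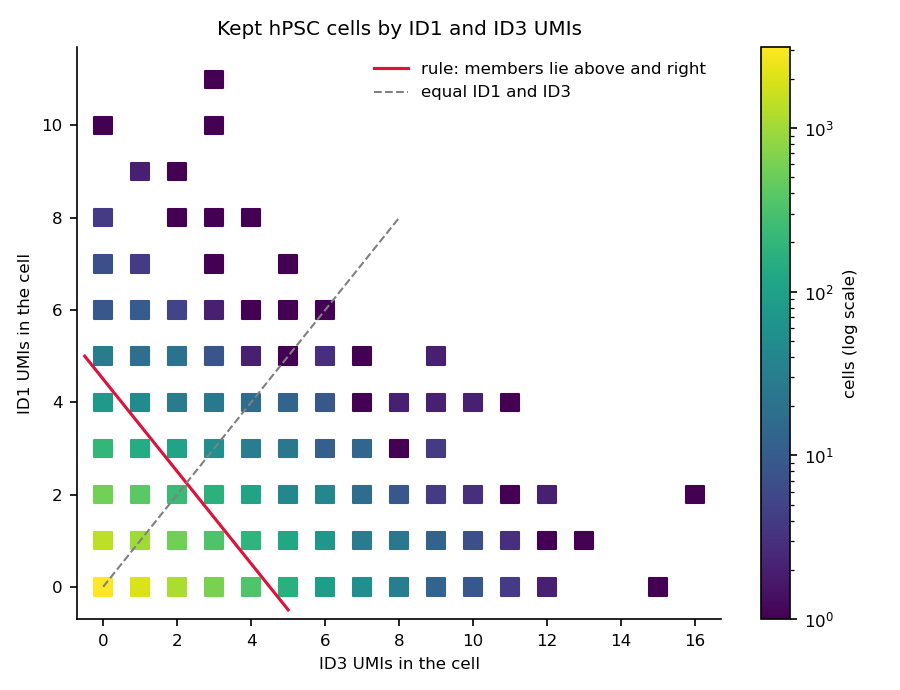
Kept hPSC cells by their UMIs of ID3 (x axis) and ID1 (y axis); the color of each square gives the number of cells on a log scale. Cells to the right of the red line are the 1740 members, and 1331 of them lie below the dashed line of equal counts.

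ID1 lies at chr20:31605283-31606515 on the plus strand, ID3 at chr1:23557918-23559794 on the minus strand and ID2 at chr2:8678845-8684453 on the plus strand (GENCODE v29, GRCh38). The 4 letters GTCT, on either strand, are the SMAD box, the short element that SMAD proteins recognise. The stretch from the first to the second box upstream of each RefSeq start (GRCh38.p14, 250 bases searched) is shown because the windows of all 3 genes hold at least 2 boxes. The window of ID1 holds 3. The sequences run 5′ to 3′ on the gene's strand with the boxes in capitals.
ID1: GTCTttccacactgcgagcaggcactAGAC
ID3: GTCTtcggcgtcAGAC
ID2: GTCTtgatAGAC
They lie at chr20:31605127-31605156, chr1:23559644-23559659 and chr2:8681953-8681964, with 22, 8 and 4 bases between the boxes. In the GENCODE models, the stretches of ID3 and ID2 fall in the 5′ untranslated part of a longer transcript. A SMAD box is common: 77.5% of 35116 promoters of this length hold at least 1, and 17.6% hold 2 within 30 bases. The GC-rich SMAD element GGCGCC was found in none of the 3 windows and in 16.4% of promoters. These matches describe letters and not binding.

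The members held the transcripts of pluripotent stem cells. All 12 markers of pluripotent stem cells were at 20 CPM or more, and their summed level was 4549 CPM in members and 4718 CPM in the cells with 0 UMIs. Markers of the fates that BMP can induce were low in both, apart from the mesoderm marker KDR. The 9 primitive streak and mesoderm markers summed to 30.2 CPM in members and 55.4 CPM in comparison cells, of which KDR, described below, made up 23.2 and 49.7 CPM. The 8 amnion markers summed to 21.8 and 19.7 CPM, the 8 trophoblast markers to 3.14 and 2.80 CPM and the 6 surface ectoderm markers to 1.00 and 0.88 CPM. HAND1, a transcription factor of amnion and early mesoderm, had 0 UMIs in members, which allows at most 0.263 CPM by the exact Poisson interval.

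The label of BMP-target-high cells was not carried by the other BMP targets, so the cells are called here by their 2 genes. A gene was counted as differing if it had at least 20 CPM in 1 of the groups and a ratio of at least 1.5-fold. The ratio sets the members' UMIs against those expected from the comparison cells in the same deciles, and a gene's comparison level is scaled in the same way. Of 6057 genes that passed the minimum, 0.38% were past the fold upwards in members and 0.528% downwards, with a median log2 ratio of 0.01. Of 22 listed immediate BMP targets other than ID1 and ID3, 4 passed the minimum, and 0 were past the fold in either direction. ID2 was lower, with 109 CPM in members and 150 CPM in the cells with 0 UMIs, a log2 ratio of -0.46 (interval -0.63 to -0.29). It was -0.59 without the deepest decile. SMAD7, an inhibitory SMAD that BMP and TGF-β signals induce, stood at 71.0 and 67.5 CPM, a log2 ratio of 0.07 (-0.19 to 0.33). TFAP2C was at 42.5 and 40.4 CPM and VENTX, a homeobox gene, at 26.2 and 22.4 CPM, and both intervals span 0.

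The remaining targets were under the minimum, and their ratios have wide intervals. BAMBI, a decoy receptor, was at 12.1 CPM in members and 12.5 CPM in comparison cells. SMAD6, the other inhibitory SMAD, was at 3.57 and 3.77 CPM. ID4 was at 4.14 and 2.54 CPM, with a log2 interval of -0.69 to 2.10. MSX1 rested on 12 UMIs in members (0.856 CPM) and GATA3 on 25 (1.78 CPM).

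Ligands and receptors gave no common direction. BMP7 was the ligand above the minimum, at 30.2 CPM in members and 34.0 CPM in comparison cells, a log2 ratio of -0.17 (-0.54 to 0.20). BMP4, the ligand used to induce amnion-like fates, was at 7.21 and 5.47 CPM, below the minimum. Of 13 receptors and SMADs, 6 passed the minimum with a median of -0.15 and 0 past the fold. BMPR1A, a type I receptor, was at 53.7 CPM in members and 66.9 CPM in comparison cells, a log2 ratio of -0.32 (-0.58 to -0.05), and -0.25 without the deepest decile. Its log2 ratio ran from -0.33 to 0.29 over the 14 alternative settings given below. BMPR2, the type II receptor, was at 34.5 and 41.4 CPM (-0.61 to 0.08). SMAD5 was at 123 and 133 CPM, a log2 ratio of -0.11, and SMAD4 at 41.4 and 33.1 CPM, a log2 ratio of 0.32 (-0.02 to 0.66), and 0.18 without that decile. Of 17 antagonists and modulators, 2 passed the minimum: FSTL1 at 107 and 112 CPM, and PPM1A, a phosphatase, at 45.9 and 38.3 CPM. TWSG1, an extracellular BMP modulator, was just below it at 12.8 and 19.3 CPM.

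**Figure D2:**
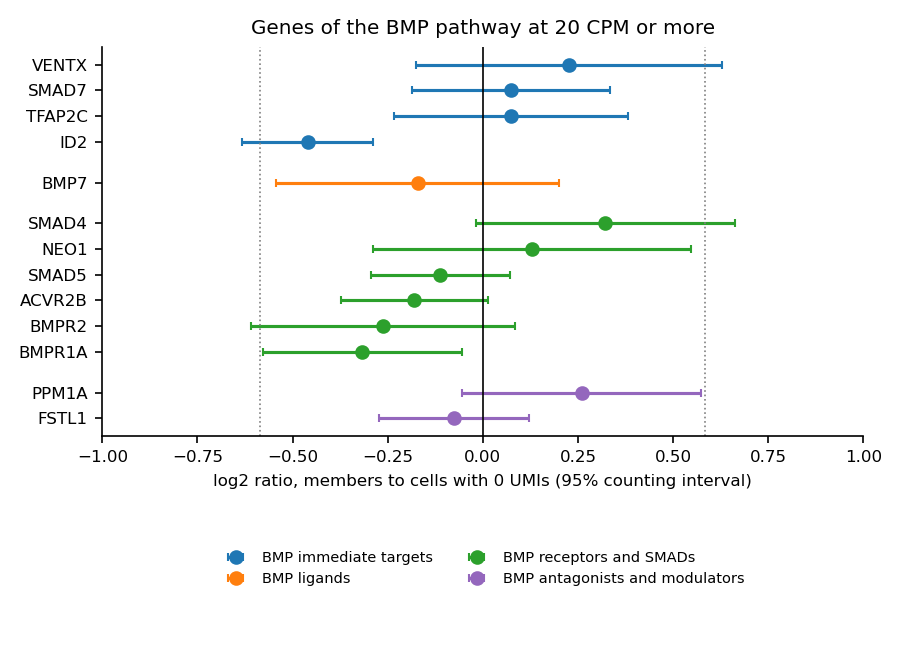
Log2 ratio of members to cells with 0 UMIs (x axis, bars are 95% counting intervals) for the BMP pathway genes at 20 CPM or more; dotted lines mark 1.5-fold. ID2 at -0.46 is the farthest from 0, and among the 13 genes the bars of ID2 and BMPR1A alone leave out 0.

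The E protein partners of the ID proteins were at similar levels in both groups. TCF3 was at 90.9 CPM in members and 83.0 CPM in comparison cells, TCF4 at 156 and 165 CPM and TCF12 at 47.6 and 48.1 CPM. All 3 intervals span 0. Of the 7 genes of the E protein list above the minimum, ID2 included, 0 were past the fold.

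Outside the BMP pathway the largest differences were in single genes. Higher in members were 23 of the 6057 genes and lower were 32. GDF15, a secreted TGF-β family member and p53 target induced by stress, stood at 101 CPM (96.0 to 107) in members and 51.7 CPM in comparison cells, a log2 ratio of 0.97 (0.71 to 1.23). CCN2, a matricellular protein induced by TGF-β and YAP, was at 33.5 and 17.3 CPM, a log2 ratio of 0.95 (0.50 to 1.40). Both stayed high without the deepest decile, at 0.94 and 0.68. ADGRL1, an adhesion receptor, had the highest ratio, 1.09 (0.54 to 1.64), at 20.9 and 9.80 CPM, and 0.77 without that decile. ADGRL1 and CCN2 reached the minimum of 20 CPM in members only. The minimum favors high ratios among such genes, so their place in the ranking is a description. STMN2, a tubulin-binding protein, was at 48.2 and 30.9 CPM, a log2 ratio of 0.64 (0.31 to 0.98), and 0.38 without that decile. ZNF826P, a zinc finger pseudogene whose reads may be shared with related genes, was at 85.6 and 54.6 CPM, a log2 ratio of 0.65 (0.39 to 0.91), and 0.55 without that decile.

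KDR was the lowest gene in members. It encodes the VEGF receptor VEGFR2, and it is both a mesoderm marker and a gene of undifferentiated human pluripotent cells. Its level was 23.2 CPM (20.7 to 25.9) in members and 49.7 CPM in comparison cells, a log2 ratio of -1.10 (-1.42 to -0.78), and -1.07 without the deepest decile. ELAVL2, a neural RNA-binding protein, was at 44.7 and 77.5 CPM, a log2 ratio of -0.79 (-1.05 to -0.54), and -0.82 without that decile. FAT3, a large cadherin, was at 21.5 and 39.6 CPM, a log2 ratio of -0.88 (-1.24 to -0.52), and -0.82 without it. The long noncoding RNA MIAT was at 22.3 CPM in members, with a log2 ratio of -0.77 (-1.14 to -0.40), and -0.60 without it. IER3, an immediate early gene, was at 50.1 and 76.7 CPM (-0.62) and LAMC1, a laminin chain, at 40.0 and 61.8 CPM (-0.63). Without the deepest decile their log2 ratios were -0.85 and -0.67.

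Part of these calls was lost without the deepest decile, which takes out its 59 comparison cells together with its 586 members. 7 genes were then past 1.5-fold upwards and 19 downwards. Of the original 23 and 32, 6 and 8 were still past the fold, while all 23 stayed above 0 and 29 of 32 below 0. SART1 went from 0.92 to 0.02 and TARS3 from -0.92 to 0.22. With comparison cells that had 1 or 2 UMIs of the 2 genes in place of 0, 0 genes were past the fold in either direction. KDR was then at -0.50, ELAVL2 at -0.28, GDF15 at 0.25 and CCN2 at 0.42.

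Some directions depended on which of the 2 genes chose the cells. Cells with at least 5 ID1 UMIs, set against cells with 0 ID1 UMIs that can be rich in ID3, gave log2 ratios of -1.39 for GDF15, -0.24 for CCN2, -0.041 for STMN2, -0.029 for ZNF826P and 0.27 for LAMC1, each on the other side of 0. Cells with at least 3 ID3 UMIs, set against cells with 0 ID3 UMIs, gave 0.89, 0.78, 0.51, 0.46 and -0.36 for the same genes. KDR was lower under both choices, at -0.67 and -0.84, as was ELAVL2, at -0.34 and -0.43.

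**Figure D3:**
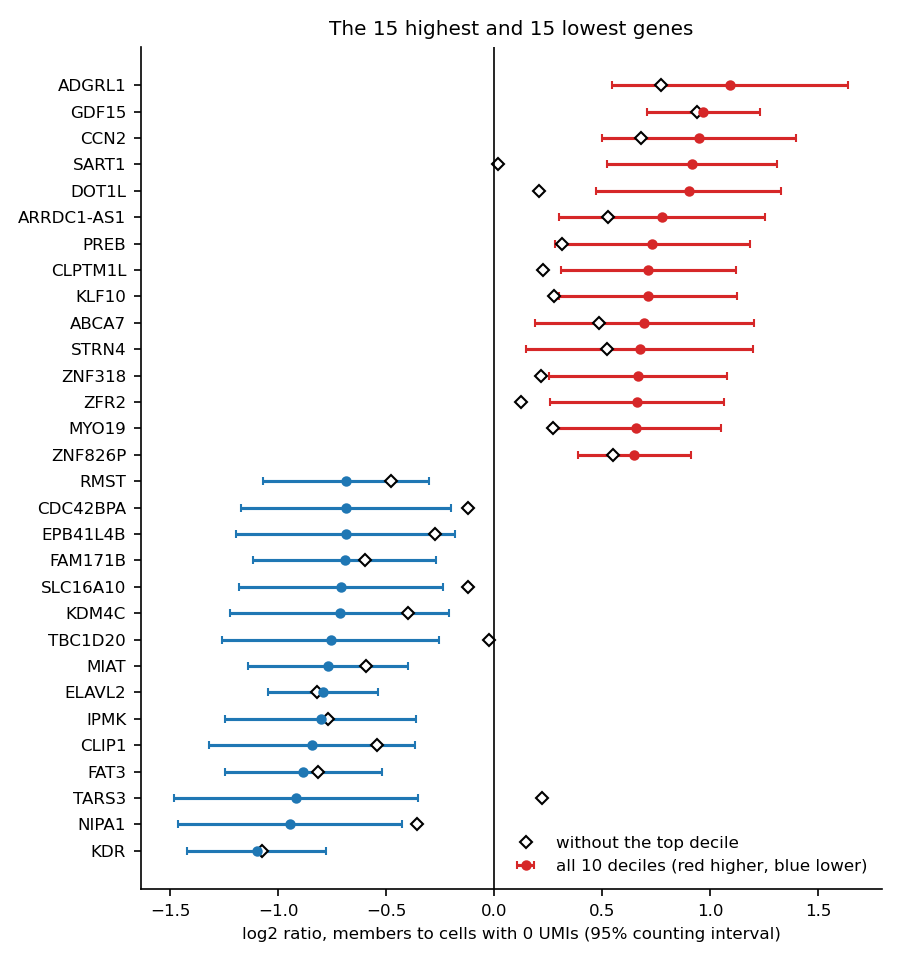
Log2 ratio of members to cells with 0 UMIs (x axis) for the 15 genes at each end of the ranking (filled points, red higher and blue lower, with 95% counting intervals); open diamonds leave out the deepest decile. KDR, GDF15 and ELAVL2 keep their values, while SART1 moves to 0.02 and TARS3 to the other side of 0.

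Levels were also described over the whole range of ID1 plus ID3. In cells with 0, 1 to 2, 3 to 4, 5 to 9 and 10 to 18 UMIs, weighted to the members' deciles, KDR was at 49.7, 32.9, 26.8, 24.1 and 11.6 CPM. ID2 was at 150, 135, 128, 110 and 102 CPM over the same steps. POU5F1, which encodes OCT4, was at 1222, 1167, 1114, 1067 and 1029 CPM. All 3 were lower at every step. CCN2 was at 17.3, 24.9, 26.1, 32.6 and 42.2 CPM, and STMN2 at 30.9, 37.8, 45.4, 47.3 and 57.3 CPM, higher at every step. GDF15 was at 51.7, 85.0, 80.3, 99.3 and 121 CPM, higher at every step but 1. SMAD7 stayed between 63.4 and 80.0 CPM with no order. Of the 15 highest genes, 4 were higher at every step, and of the 15 lowest, 7 were lower at every step. These genes were chosen on the cells of the first step and of the steps from 5 UMIs, which set their direction in advance. Only the steps of 1 to 2 and 3 to 4 UMIs hold other cells, and the share over all genes is not given. The highest step has 117 cells, and for KDR it rests on 18 UMIs.

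**Figure D4:**
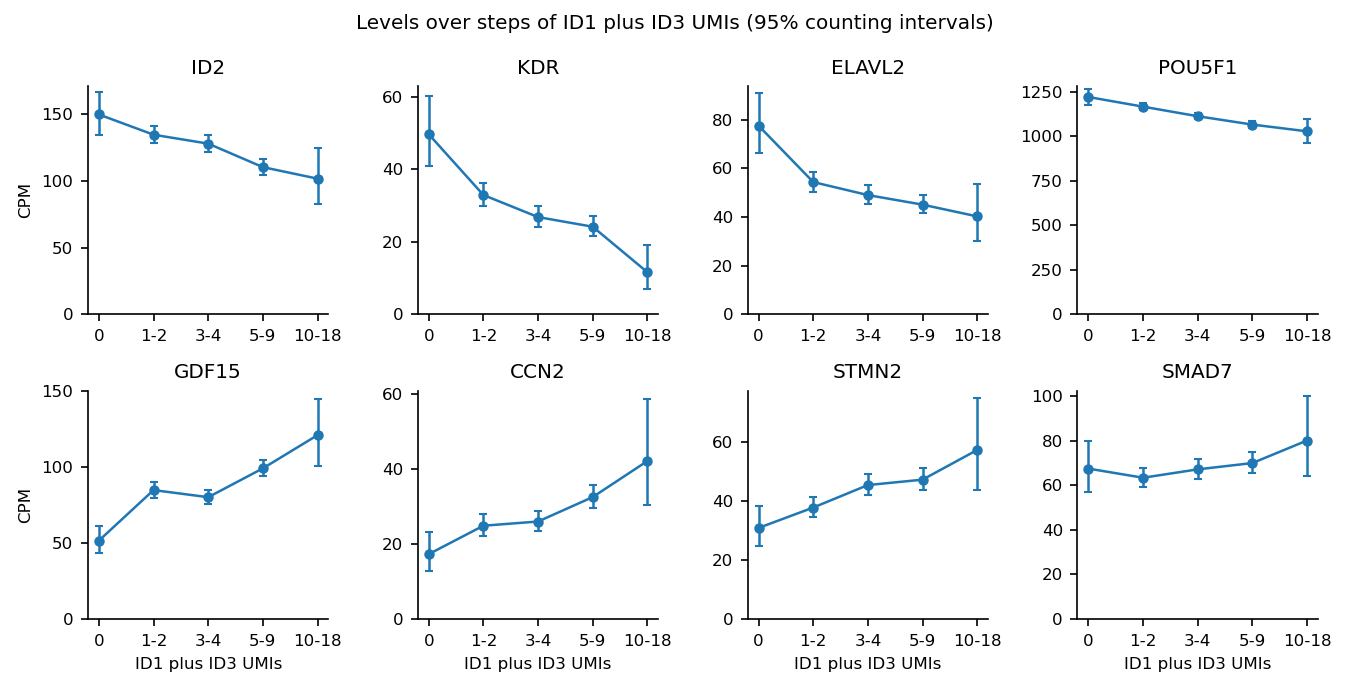
CPM (y axis, from 0) of 8 genes over 5 steps of ID1 plus ID3 UMIs per cell (x axis), weighted to the members' deciles of depth, with 95% counting intervals. ID2, KDR, ELAVL2 and POU5F1 are lower at every step, CCN2 and STMN2 are higher at every step, and SMAD7 has no order. The first step and the steps from 5 UMIs hold the comparison cells and the members, so only the steps between them hold other cells.

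No gene of the pluripotency and cell cycle lists was past the fold, and list medians were small. In this comparison 6.77% of all genes had an interval above 0 and 5.73% an interval below 0. Of the 19 core pluripotency genes above the minimum, 0 were past the fold, the median was 0.00, 1 had an interval above 0 and 3 below. POU5F1 was at 1060 and 1222 CPM, a log2 ratio of -0.21 (-0.26 to -0.15), NANOG at 177 and 184 CPM and SOX2 at 235 and 218 CPM. Of 14 genes of FGF and ERK feedback, 3 had an interval above 0: DUSP6, a phosphatase that shuts off ERK, at 238 and 185 CPM (log2 ratio 0.37, and 0.40 without the deepest decile), SPRY2 at 51.2 and 39.4 CPM and SPRY4 at 78.1 and 62.7 CPM. The median of these 14 genes was -0.05, with 7 above 0 and 7 below, and 0 intervals below 0. Among 14 p53 targets, GDF15 was past the fold and BBC3, a mediator of apoptosis, was at 71.1 and 49.8 CPM (0.51, and 0.42 without that decile). The list median was 0.09. In the Nodal list, NODAL was at 28.2 and 20.6 CPM, a log2 ratio of 0.45 (0.01 to 0.90; 0.43 without that decile), and SKIL, a repressor of SMAD signaling, at 126 and 164 CPM, a log2 ratio of -0.38 (-0.54 to -0.21; -0.45 without that decile). With cells chosen by ID1 alone, DUSP6 was at -0.66 and SKIL at 0.34, and with ID3 alone NODAL was at -0.35, so these 3 directions also depended on the gene that chose the cells. SPRY4 ran from -0.42 to 0.45 and SPRY2 from -0.08 to 0.54 over the 14 alternative settings given below. The 23 S phase genes had a median of 0.10, with 5 intervals above 0 and 1 below. The 31 G2 and M phase genes had a median of -0.10, with 0 intervals above 0 and 7 below. Mitochondrially encoded genes summed to a log2 ratio of -0.10 and ribosomal protein genes to -0.02. Whether these shifts take part in the differences above was not tested. When cells were also grouped by their cell cycle lists, 36 genes were past the fold upwards and 59 downwards. Among these were 21 of the original 23 and 24 of the original 32, and KDR and GDF15 were at -1.11 and 1.09.

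Members led by ID1 and members led by ID3 differed in their other genes. This comparison, of the 337 members with more ID1 against the 1331 with more ID3, was added after the values had been seen. The 2 sets had a similar depth, with medians of 7108 and 7163 UMIs, and ID1 and ID3 levels of 557 and 207 CPM against 154 and 655 CPM. Of 6021 genes, 0.415% (25) were past 1.5-fold upwards in the members led by ID1 and 0.249% (15) downwards.

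SERPINB9, a granzyme B inhibitor, was the highest of them, at 109 CPM (290 UMIs) in members led by ID1 and 39.0 CPM in members led by ID3, a log2 ratio of 1.49 (1.27 to 1.70). RALYL was at 23.4 and 11.7 CPM (log2 ratio 1.00), CGNL1, a junction protein, at 91.6 and 52.4 CPM (0.81) and SESN3, a sestrin, at 75.0 and 46.0 CPM (0.71). RALYL reached the minimum of 20 CPM in members led by ID1 only, and the minimum favors high ratios among such genes. NODAL was at 40.4 and 25.8 CPM, a log2 ratio of 0.64 (0.32 to 0.97). LEFTY1, an inhibitor that Nodal signaling induces, was under the minimum at 17.0 and 5.79 CPM, a log2 ratio of 1.55 (0.99 to 2.11). ID2 was at 130 and 104 CPM, a log2 ratio of 0.32 (0.15 to 0.50). Against the cells with 0 UMIs, which both sets share as their reference, ID2 was at -0.21 in the first set and -0.52 in the second. Without the deepest decile, the log2 ratio of members led by ID1 to members led by ID3 was 1.92 for SERPINB9, 0.18 for NODAL and 0.51 for ID2.

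Pluripotency genes were higher in the members led by ID1. Over all genes 7.27% had an interval above 0 and 5.71% an interval below 0. Of 18 core pluripotency genes above the minimum, 14 had an interval above 0 and 0 below, with a median of 0.21 and 0 past the fold. SOX2 was at 295 and 220 CPM, a log2 ratio of 0.43 (0.31 to 0.54), and TDGF1, the Nodal co-receptor, at 340 and 254 CPM, a log2 ratio of 0.42 (0.31 to 0.53). NANOG was at 206 and 169 CPM (0.28) and POU5F1 at 1103 and 1049 CPM (0.07). Of 8 neural ectoderm genes, 5 had an interval above 0, among them SIX3 at 62.2 and 42.2 CPM (0.56) and ZIC2 at 246 and 184 CPM (0.42). OTX2, a transcription factor of the early forebrain, was under the minimum of 20 CPM, at 9.43 and 3.49 CPM, a log2 ratio of 1.44 (0.69 to 2.18). It was named after its value had been seen. Of the 9 neural ectoderm markers, OTX2 among them, 8 were under the minimum, and the others of these are not described.

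Part of the p53 targets and ERK feedback genes was lower in the members led by ID1. Of 14 p53 targets, 2 were at least 1.5-fold lower in members led by ID1 and 5 had an interval below 0, against 0 above, with a median of -0.20. GDF15 was at 58.5 CPM in members led by ID1 and 115 CPM in members led by ID3, a log2 ratio of -0.97 (-1.22 to -0.73). CDKN1A, which encodes the cell cycle inhibitor p21, was at 51.7 and 91.8 CPM, a log2 ratio of -0.83 (-1.09 to -0.57). MDM2 was at 79.2 and 101 CPM (-0.35) and BAX at 378 and 432 CPM (-0.19). Of 15 FGF and ERK feedback genes, 5 had an interval below 0 and 1 above. DUSP6 was at 176 and 258 CPM, a log2 ratio of -0.55 (-0.69 to -0.41), and ETV4, a transcription factor that ERK induces, was at 76.6 and 97.2 CPM (-0.34). FOSL1, an immediate early AP-1 gene, was at 11.7 and 21.7 CPM (-0.89), and reached the minimum of 20 CPM in members led by ID3 only. Its list of immediate early genes had no common direction. Of 13 genes above the minimum, 3 had an interval above 0 and 2 below, with a median of 0.01. Without the deepest decile GDF15 was at -1.50, CDKN1A at -1.16, MDM2 at -0.55, DUSP6 at -0.92 and FOSL1 at -1.69. The whole-member comparison averages over both sets, with members led by ID3 in the majority. The cells with 0 UMIs held 51.7 CPM of GDF15, which is below both sets, and 72.7 CPM of CDKN1A, which is between them.

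Some genes differed from the cells with 0 UMIs in the same direction in both sets. KDR had log2 ratios of -1.01 and -1.16, ELAVL2 of -0.77 and -0.79, CCN2 of 1.01 and 0.96 and STMN2 of 0.60 and 0.65 in members led by ID1 and by ID3. The 2 sets share the reference cells. Set directly against each other, they gave a log2 ratio of 0.17 (-0.22 to 0.57) for KDR and 0.03 (-0.30 to 0.36) for CCN2. Without the deepest decile these were 0.66 and 0.19. For CCN2 and STMN2 the direction turned when all cells with at least 5 ID1 UMIs were set against cells with 0 ID1 UMIs, as given above.

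All kept cells, which include the members, were also ordered by 1 gene at a time. SERPINB9, GDF15, CDKN1A, DUSP6 and SOX2 had already been seen to differ between members led by ID1 and by ID3. The last step of each order holds members only, so the directions there were largely set in advance. The share of all genes in order is not given. Over 0, 1, 2, 3 to 4 and 5 to 11 ID1 UMIs, SERPINB9 was at 42.8, 48.7, 66.0, 92.2 and 141 CPM. Over 0, 1, 2, 3 to 4 and 5 to 16 ID3 UMIs it was at 74.9, 55.1, 47.9, 44.1 and 39.4 CPM. GDF15 was at 97.8, 79.4, 75.1, 65.0 and 35.4 CPM over ID1, and at 59.4, 74.8, 97.1, 91.7 and 130 CPM over ID3. CDKN1A went down from 92.0 to 50.2 CPM over ID1 and up from 69.7 to 99.0 CPM over ID3, in order at every step of both. DUSP6 went down from 229 to 146 CPM over ID1 and up from 170 to 274 CPM over ID3, also in order. SOX2 went up from 209 to 315 CPM over ID1 at every step and was at 241 CPM in the first and 211 CPM in the last step of ID3. ID2 was between 113 and 130 CPM over ID1 with no order, and went down over ID3 from 142 to 97.1 CPM at every step. POU5F1 was lower at every step of both. GDF15, SERPINB9 and DUSP6 vary strongly between cells, with a variance over mean in thinned cells of 3.04, 2.07 and 1.47, a spread that their counting intervals do not cover.

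**Figure D5:**
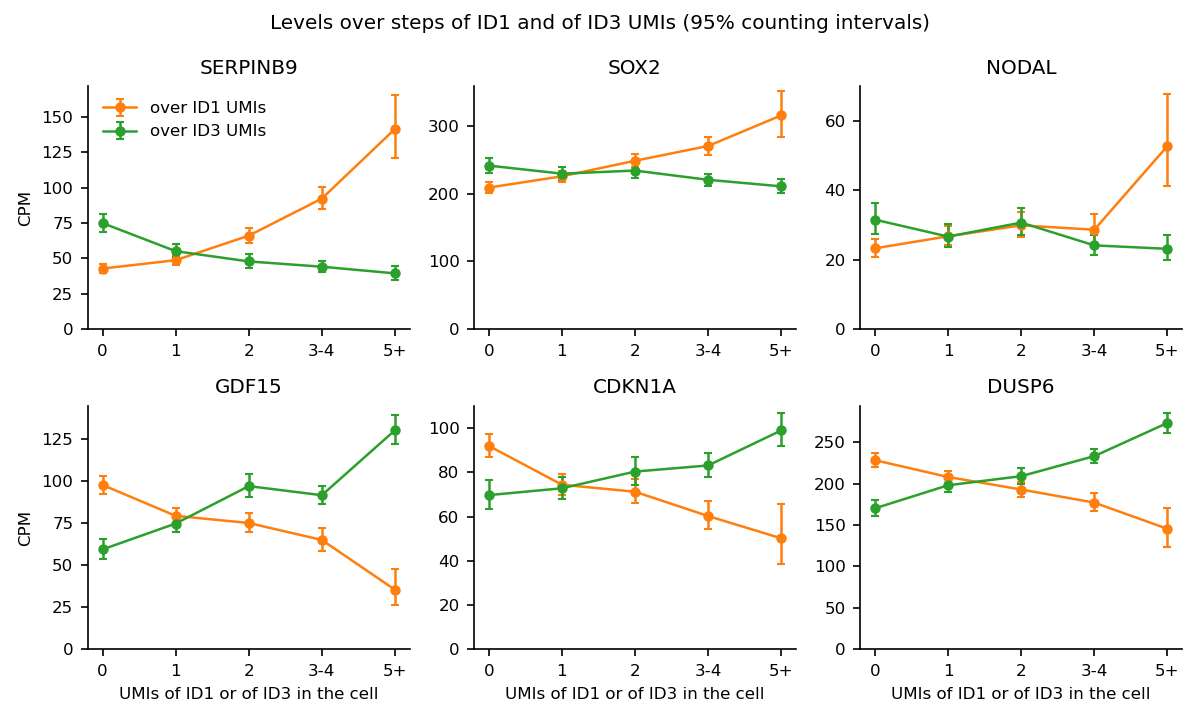
CPM (y axis, from 0) of 6 genes over steps of ID1 UMIs (orange) and of ID3 UMIs (green) in all kept hPSC cells, weighted to the members' deciles, with 95% counting intervals. SERPINB9 and SOX2 go up over ID1 and not over ID3, and GDF15, CDKN1A and DUSP6 go down over ID1 and are highest in the last step of ID3. The last steps hold members only, in which these genes had already been seen to differ.

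The ectoderm library held few cells of this kind. Of its 13298 kept cells, 54 met the rule (0.406%, 0.305% to 0.530%), with 34.5 CPM of ID1 and 434 CPM of ID3. Their UMIs were so few that 3.98% and 4.85% of 6163 genes were past the fold in the 2 directions, and no gene is named from them. ID3 alone allowed a comparison of like form in both cultures: cells with at least 3 ID3 UMIs against cells with 0, which were 403 and 9255 cells in the ectoderm library. There 0.0675% of 5927 genes (4) were past the fold upwards and 0.202% (12) downwards. In hPSC 0.0675% of 5928 genes were past it in each direction. ID2 was lower in both, at 86.9 and 107 CPM in ectoderm (log2 ratio -0.30, -0.46 to -0.13) and at 105 and 141 CPM in hPSC (-0.42, -0.52 to -0.32). MIAT was also lower in both, with log2 ratios of -0.64 (-0.95 to -0.33) and -0.58 (-0.80 to -0.36). CCN2 was at 17.9 and 12.4 CPM in ectoderm (0.53, 0.14 to 0.92), under the minimum of 20 CPM, and at 32.2 and 18.7 CPM in hPSC (0.78, 0.55 to 1.02). TAGLN, an actin-binding protein, had log2 ratios of 0.85 (0.65 to 1.06) and 0.36 (0.23 to 0.48), and CDKN1A of 0.54 (0.20 to 0.89) and 0.36 (0.23 to 0.49). KDR rested on 6 UMIs in the ectoderm cells with high ID3, and its interval there spans 0. The share of all genes with the same direction in both cultures is not given.

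The share of members was compared between guide targets. A guide was assigned to a cell if exactly 1 guide had at least 20 amplicon UMIs, which gave 2657 kept hPSC cells, 378 of them members (14.2%, 12.9% to 15.6%). Cells with a nontargeting guide included 27 members of 195 (13.8%, 9.33% to 19.5%). These shares are not adjusted for depth, with which the share of members rises. By the depth of their cells, 29.2 members were expected under the nontargeting guides. Over the 38 targets with at least 30 cells, the share of members ran from 2.86% for CALD1 (1 of 35, 4.28 expected by depth) to 23.3% for SNX12 (7 of 30, 4.78 expected), with a median of 14.3%. The interval of 0 of these 38 targets left out the nontargeting share. Over all 111 targets with an assigned cell it did so for 3, each with few cells: IMPA1 (7 of 17, 18.4% to 67.1%), EIF3C (6 of 17, 14.2% to 61.7%) and HMGCS1 (3 of 4, 19.4% to 99.4%). By depth, 3.51, 3.80 and 0.551 members were expected under these 3 targets. They were picked out after their values were seen, and the intervals are not adjusted for the number of targets. Members were found under 90 of 113 named targets.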

How the data were processed

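Each transcriptome was a 10x Genomics single-cell 3′ library, per the labels. The deposited matrices hold UMI counts per gene and barcode. The submitters' processing notes name STARsolo, STAR and GRCh38, with no version or strand setting. The hPSC amplicon table lists 1 read per line with counts of mismatched bases, as deposited by the authors. It ends at 1048575 reads and may be part of a longer table. The matrices hold 60674 features.

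Kept hPSC cells (13862 of 15333) held 79527270 UMIs. Members' UMIs of each gene were divided by those expected from the comparison cells' rate in each of 10 depth groups. Intervals (95%) are log-normal for ratios, exact Poisson for levels and exact Clopper-Pearson for shares. No ratio was formed with 3 or fewer counts in a group. Steps were weighted to the members' depth groups. Doublets were not called or removed, and free RNA was not measured. Ratios were tested on simulated counts. Python 3.11.15, NumPy 2.4.6, SciPy 1.17.1, pandas 2.3.3 and matplotlib 3.10.9 were used.

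Named genes are the 15 highest and 15 lowest, the BMP lists and up to 3 genes from each end of the other lists, leaving out ID1, ID3, mitochondrially encoded, ribosomal protein and sex-linked marker genes and transgenes. The members, the 27 pathway lists, the 12 marker lists and the rules were chosen with earlier results of these data known. The comparison of members led by ID1 and by ID3, its 15 highest and 15 lowest genes, the steps over 1 gene and the comparison on ID3 alone in ectoderm were added after the values were seen, as were LEFTY1, TDGF1 and other list members named from them. Some genes are not reported here.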

Additional observations from a re-analysis of the deposited data

How the results depend on the processing

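The counts of genes past 1.5-fold depend strongly on the settings. The cause was not tested, and some alternatives also change the cells compared. The 23 higher and 32 lower genes became 8 and 8 with members at 3 or more UMIs, 126 and 160 at 8 or more, and 84 and 71 at 5 or more after thinning. They became 174 and 88 with ID1 alone, 4 and 4 with ID3 alone, and 0 and 0 against cells with 1 or 2 UMIs. With 20 depth groups they were 63 and 94, with no depth groups 10 and 5, in cells of 5000 or more UMIs 92 and 130, and without the deepest decile 7 and 19. Scaling without mitochondrial and ribosomal genes gave 47 and 72, cell cycle strata 36 and 59, and cells with EGFP 37 and 36. A minimum of 10 CPM gave 121 and 151, of 50 CPM 2 and 3, a lower fold minimum gave 272 and 284, and a fold of 2 gave 1 and 1. A mitochondrial limit of 10% gave 24 and 31.

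Members led by ID1 against members led by ID3 gave 25 and 15 genes, 8 and 4 at 3 or more UMIs, 146 and 86 without the deepest decile, and 51 and 36 without mitochondrial and ribosomal genes. All 25 and all 15 kept their direction under the 6 alternatives run. SERPINB9 ranged from 1.42 to 1.92, GDF15 from -1.50 to -0.92, SOX2 from 0.40 to 0.55 and NODAL from 0.18 to 0.67.

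Of the values for single genes, 2285 stayed within the counting interval of the reported value, 282 left it with no called direction changed, and 23 turned. Choosing cells by ID1 alone turned GDF15 to -1.39, CCN2 to -0.24, DOT1L to -0.42, PREB to -0.093, ABCA7 to -0.047, ZNF318 to -0.045, ZFR2 to -0.11, ZNF826P to -0.029 and STMN2 to -0.041, and TBC1D20 to 0.55, SLC16A10 to 0.28, EPB41L4B to 0.19, RMST to 0.36 and LAMC1 to 0.27. Its comparison cells can be rich in ID3. Thinned members turned MYO19 to -0.055, EPB41L4B to 0.15 and CDC42BPA to 0.35. Cells with 1 or 2 UMIs turned STRN4 to -0.079, ZFR2 to -0.036, TARS3 to 0.061 and SLC16A10 to 0.032. TBC1D20 was at 0.11 with no depth groups and TARS3 at 0.22 without the deepest decile. Where no construction is named, the cause was not tested. KDR stayed between -1.54 and -0.50 and ID2 between -0.75 and -0.12 under the 14 alternatives.

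Guide-assigned cells held 14.2% members, 14.3% with a guide call at 10 amplicon UMIs, and 35.9% with members at 3 or more UMIs. No paired analysis was possible because there is 1 library and no result comes from a test.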

Other observations

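The genes around ID1 and ID3 were examined for levels that follow position. Of the genes within 1 Mb at 20 CPM or more, 7 lie around ID1 and 10 around ID3, and 0 were past 1.5-fold in members. Their median log2 ratios were -0.07 and 0.06. LUZP1, near ID3, was at 51.9 and 37.5 CPM, a log2 ratio of 0.47 (0.17 to 0.77). BCL2L1, an inhibitor of apoptosis, lies near ID1. In members led by ID1 it was at 29.8 CPM, against 20.5 CPM in members led by ID3, a log2 ratio of 0.54 (0.17 to 0.92). The other 5 measured neighbours of ID1 in that comparison ran from -0.22 to 0.10.

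Over all genes 6.77% had an interval above 0 and 5.73% below 0 in members against cells with 0 UMIs. Metallothioneins, small metal-binding proteins, had a median log2 ratio of -0.18 over 6 genes, with 0 past 1.5-fold and 3 intervals below 0. The median was 0.047 with cells chosen by ID1 alone, on the other side of 0, and stayed below 0 under the other alternatives run. Of 19 glycolysis and hypoxia genes, 0 were past 1.5-fold, 7 had an interval below 0 and 1 above, and the list summed to 9235 CPM in members and 9905 CPM in comparison cells. The 13 genes of cholesterol synthesis had a median of -0.03 with 0 intervals on either side of 0. Of 10 YAP and TGF-β response genes, 4 had an interval above 0 and 1 below, CCN2 and TAGLN (112 and 85.3 CPM, a log2 ratio of 0.39) among the first.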
